A study of Mus musculus with 6 samples.

Results

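The E2F family and the retinoblastoma proteins were followed here across the cells of adult mouse hearts in which cardiomyocytes carried an active form of YAP. The genes were taken by name: E2f1, E2f2, E2f3, E2f4, E2f5, E2f7, E2f8, Rb1, Rbl1 and Rbl2, which made 10 of the 22281 features of the deposited count table, and all 10 were present in it. Their unique molecular identifier (UMI) counts, in which each count stands for 1 captured transcript, were summed over the cells of each library and each cluster that the authors had named.

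The YAP5SA hearts carried a YAP5SA transgene together with Myh6-MCM, a tamoxifen-activated Cre recombinase under the cardiomyocyte promoter Myh6 (strain label Yap5SA+/tg; Myh6-MCM). YAP5SA is a form of the coactivator YAP that the Lats kinases cannot phosphorylate. The Control hearts carried Myh6-MCM alone, and both genotypes were adult and had received tamoxifen, so Cre and the drug were common to all samples. Because Myh6 drives the Cre, the transgene should be active in cardiomyocytes and not in the other cells of the same hearts. Single cells were profiled by Drop-seq, a droplet method that reads the 3′ ends of transcripts. Each genotype gave 3 libraries: 2 from dissociated tissue, called tissue libraries below, and 1 from cardiomyocytes enriched by gravity settling. No label says that the libraries came from separate animals, so p-values measure the spread between libraries, which may be technical.

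The 6 libraries held 21706 cells in 17 named clusters and between 3382656 and 13483791 UMIs each, and 10 of 21696 distinct cell barcodes occurred in more than 1 library. The cardiomyocyte clusters held 343, 282 and 1004 cells in the YAP5SA tissue-1, tissue-2 and enriched libraries, against 576, 1173 and 1068 cells in the Control tissue-2, tissue-3 and enriched libraries. The summed level of 10 cardiomyocyte marker genes in them was 36156, 29794 and 40781 CPM (counts relative to all UMIs of the sum) in the YAP5SA libraries, against 58736, 80392 and 93215 CPM in the Control libraries, and 6 of the 10 were called lower in the test described below. The median share of mitochondrial UMIs per cell, over all cells of a library, was 2.95%, 2.40% and 6.60% in the YAP5SA libraries and 2.31%, 16.0% and 13.4% in the Control libraries. Yap1 itself had 37.7, 32.5 and 20.9 scaled CPM in YAP5SA cardiomyocytes, against 20.2, 22.6 and 21.9 scaled CPM in Control cardiomyocytes. The Yap1 ranges of the genotypes overlapped, and the log2 fold change of 0.46 (SE 0.29) did not pass the test (edgeR, adjusted p = 0.276); whether transgene transcripts were counted as Yap1 is not given in the sources used here.

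E2F proteins are transcription factors that bind promoters of genes needed for DNA replication and mitosis. The retinoblastoma, or pocket, proteins Rb1, Rbl1 (p107) and Rbl2 (p130) bind E2Fs and hold those promoters silent until cyclin-dependent kinases phosphorylate the pocket protein. E2f1, E2f2 and E2f3 are known as the activators, E2f4 and E2f5 act mostly with pocket proteins as repressors in resting cells, and E2f7 and E2f8 are atypical repressors that act without a dimer partner. In the adult heart most cardiomyocytes have left the cell cycle.

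In YAP5SA cardiomyocytes E2f1, E2f4, E2f8 and Rbl1 were called higher, and no member was called lower. Each called gene passed the filter on low counts, given below, only with its YAP5SA libraries. The calls of E2f4, E2f8 and Rbl1 were lost when some single libraries were left out. The resting-cell pocket gene Rbl2 was the member with lower values in every YAP5SA library than in any Control library. These values are CPM scaled by TMM (trimmed mean of M values), which corrects library totals for the composition of each library, given in the order tissue-1, tissue-2 and enriched for YAP5SA, and tissue-2, tissue-3 and enriched for Control. Fold changes are from edgeR's quasi-likelihood test across all genes, with the preparation as a covariate and Benjamini-Hochberg adjustment.

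E2f1, which switches on genes of DNA replication, had 14.8, 10.1 and 8.07 scaled CPM in YAP5SA cardiomyocytes, against 0.33, 0 and 0 scaled CPM in Control cardiomyocytes. These values rest on 22, 18 and 42 UMIs in the YAP5SA libraries, against 1, 0 and 0 UMIs in the Control libraries. The groups did not overlap, and the Control side came down to 1 transcript in 2817 cells. The mean was 10.99 ± 3.46 scaled CPM in YAP5SA and 0.11 ± 0.19 in Control cardiomyocytes (SD, n = 3 libraries each). Its fitted log2 fold change was 6.33 (SE 0.81, adjusted p = 0.0048), a size that depends on the prior count because the Control side was almost empty. Over pooled libraries, E2f1 stood at 12.1 CPM in YAP5SA and 0.0735 CPM in Control cardiomyocytes, a ratio of 165 with an exact 95% interval of 28.8 to 6601 that covers counting error only. The filter on low counts asked for 3.19 CPM, before TMM scaling, in 3 libraries. E2f1 reached it in 3 YAP5SA and 0 Control libraries, so it had to differ to be tested at all.

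E2f2, the second activator, gave 0, 3 and 5 UMIs in YAP5SA cardiomyocytes and 0 UMIs in each Control library. It did not pass the filter on low counts, and over pooled libraries it was at least 5.37-fold higher in YAP5SA than the 0.221 CPM that 3 UMIs in all Control cardiomyocytes would give. E2f3, the remaining activator, had 11.5, 12.9 and 8.84 scaled CPM in YAP5SA cardiomyocytes, against 7.96, 7.32 and 6.46 in Control cardiomyocytes. Each YAP5SA library lay above each Control library, the lowest YAP5SA value close to the highest Control value. Its log2 fold change was 0.60 (SE 0.33) and did not pass the test (edgeR, adjusted p = 0.210), although it did under scaling by library totals alone (1.44, adjusted p = 0.0197), a scaling that moved the median of all genes to 0.88 from 0.04 (log2).

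E2f4, a repressor E2F that occupies promoters with Rbl1 and Rbl2, had 41.1, 33.1 and 14.99 scaled CPM in YAP5SA cardiomyocytes, against 14.9, 5.02 and 0.99 in Control cardiomyocytes. The highest Control library lay just under the lowest YAP5SA library, and within each genotype the enriched library was the lowest. Its log2 fold change was 2.303 (SE 0.54, edgeR adjusted p = 0.0228), from 198 UMIs in YAP5SA and 71 UMIs in Control cardiomyocytes. E2f4 reached the cutoff of the filter in 3 YAP5SA and 2 Control libraries, so its Control libraries alone would not have carried it past the filter. E2f5, the other repressor E2F, had 4.04, 3.93 and 2.88 scaled CPM in YAP5SA cardiomyocytes, against 2.99, 3.55 and 2.48 in Control cardiomyocytes. Its ranges overlapped, and the log2 fold change of 0.25 (SE 0.46) did not pass the test (edgeR, adjusted p = 0.717).

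E2f7, an atypical E2F that represses E2F target genes late in the cycle, gave 5, 7 and 8 UMIs in YAP5SA cardiomyocytes and 0 UMIs in all 3 Control libraries. It did not pass the filter, and over pooled libraries it was at least 13.4-fold higher in YAP5SA than that floor. E2f8, the related atypical repressor, had 6.06, 3.93 and 3.27 scaled CPM in YAP5SA cardiomyocytes, against 0.66, 1.25 and 0.50 in Control cardiomyocytes. The groups did not overlap, and the log2 fold change was 2.35 (SE 0.60, edgeR adjusted p = 0.0278). E2f8 too passed the filter through its YAP5SA libraries alone, and without a filter it was not called (adjusted p = 0.0534).

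Rbl1, the pocket protein p107 that is made mainly in cycling cells, had 8.08, 3.37 and 3.27 scaled CPM in YAP5SA cardiomyocytes, against 1.66, 0.21 and 0 in Control cardiomyocytes. The groups did not overlap, and the log2 fold change was 3.03 (SE 0.92, edgeR adjusted p = 0.0473). Rbl1 likewise passed the filter through its YAP5SA libraries alone. Rbl2, the pocket protein p130 that prevails in resting cells, had 8.08, 7.86 and 9.03 scaled CPM in YAP5SA cardiomyocytes, against 11.3, 17.8 and 20.4 in Control cardiomyocytes. The groups did not overlap, but the log2 fold change of -0.98 (SE 0.34) missed the threshold (edgeR, adjusted p = 0.0686), and under scaling by library totals alone it was -0.12 (adjusted p = 0.806). Without the Control tissue-2 library, Rbl2 was called lower (-1.18, edgeR adjusted p = 0.0159). Rb1, the founding tumour suppressor of the family, had 13.5, 18.5 and 11.9 scaled CPM in YAP5SA cardiomyocytes, against 9.29, 8.57 and 11.4 in Control cardiomyocytes. The groups did not overlap, but its log2 fold change of 0.58 (SE 0.34) did not pass the test (edgeR, adjusted p = 0.240), except under library totals alone (1.42, adjusted p = 0.0231).

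In YAP5SA cardiomyocytes Rbl1 was called higher, E2f7 did not pass the filter, and Rbl2 had lower scaled values without being called. The windows of 250 bases before the annotated start are shown for these genes, in the RefSeq mouse build GRCm38.p6. They are printed 5′ to 3′ on the gene's strand, with matches to an E2F motif in capitals.
Rbl1, chr2:157204535-157204784, minus strand: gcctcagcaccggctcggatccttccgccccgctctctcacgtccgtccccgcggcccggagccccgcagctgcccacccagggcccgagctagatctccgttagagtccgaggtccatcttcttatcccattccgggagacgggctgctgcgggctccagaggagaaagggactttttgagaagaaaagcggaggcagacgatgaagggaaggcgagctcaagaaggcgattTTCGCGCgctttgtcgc
E2f7, chr10:110745189-110745438, plus strand: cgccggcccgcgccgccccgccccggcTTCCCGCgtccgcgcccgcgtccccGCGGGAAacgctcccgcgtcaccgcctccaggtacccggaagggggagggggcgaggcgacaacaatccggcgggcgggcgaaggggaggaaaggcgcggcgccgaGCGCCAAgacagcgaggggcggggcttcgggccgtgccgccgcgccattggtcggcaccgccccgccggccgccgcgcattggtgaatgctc
Rbl2, chr8:91069807-91070056, plus strand: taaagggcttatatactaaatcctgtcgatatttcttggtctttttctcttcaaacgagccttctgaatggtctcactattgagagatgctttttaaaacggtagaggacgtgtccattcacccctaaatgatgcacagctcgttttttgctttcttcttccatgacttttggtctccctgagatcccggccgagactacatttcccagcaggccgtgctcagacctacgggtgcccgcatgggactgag
The E2F motif was searched on both strands in the form TTCCCGC, the form TTCGCGC, the form TTGCCGC and the form TTGGCGC, and 7.89% of 32851 RefSeq windows of this length held at least 1 of these forms. Rbl1 had TTCGCGC 17 bases before the start. E2f7 had TTCCCGC 223 bases before the start on its own strand and 198 bases before it on the other strand, and TTGGCGC 92 bases before it on the other strand. Rbl2 had none of these letters in its window. E2f8 had TTGGCGC 111 bases before its annotated start and E2f3 had TTCCCGC 11 bases before 1 of its starts, while the windows of E2f1 and E2f2 held none. The windows of E2f1 (154569427 to 154569676) and E2f8 (48881597 to 48881846) lay inside their own genes. These minus-strand genes reach to 154569892 and 48882073. The bases before those outer ends were not searched, so the absence in E2f1 does not cover them. A second window each of E2f2 (136180532 to 136180781) and E2f3 (29984392 to 29984641) also lay inside the gene. The TEAD motif GGAATG, the letters bound by the factors that YAP works with, was found in 1 of the 7 members that had a window in the table, Rbl1 (on the other strand, 121 bases before the start), and in 12.6% of all windows. The cell-cycle homology region TTTGAA, to which MuvB binds, was found in Rbl2 and E2f8 and in 16.0% of all windows. It was also found in the E2f2 window inside the gene and in the outer window of E2f3. The letters are descriptions of these windows and not measured binding sites.

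**Figure D1:**
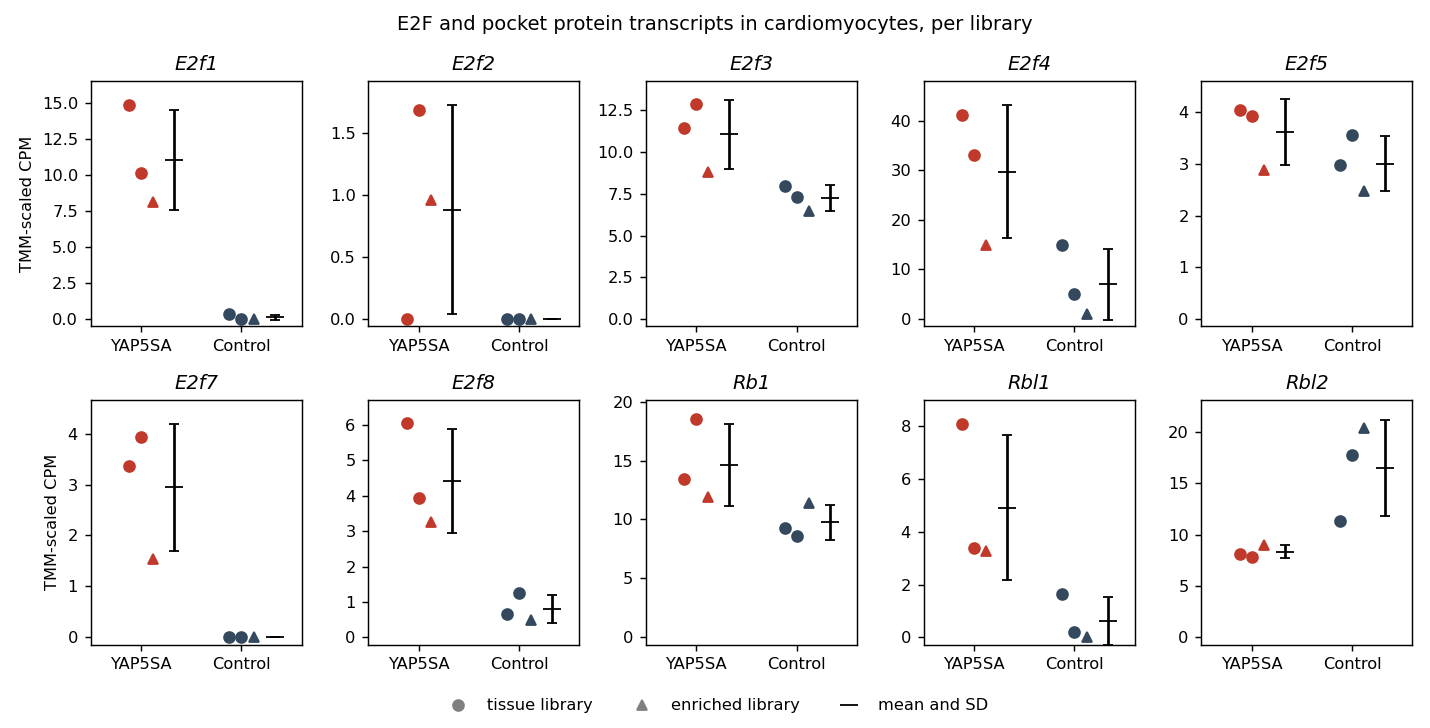
Level of each of the 10 genes in cardiomyocytes, in TMM-scaled CPM (linear axis, 1 panel per gene), with YAP5SA libraries left and Control libraries right. Circles are tissue libraries, triangles are enriched libraries, and the bar with whiskers is the mean ± SD of 3 libraries. E2f1 lay between 8.07 and 14.8 in YAP5SA and at most at 0.33 in Control, whereas Rbl2 lay between 7.86 and 9.03 in YAP5SA and between 11.3 and 20.4 in Control.

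Of the 8 genes tested in cardiomyocytes, 4 were called higher and 0 lower, against 13.9% of all 10889 genes called higher and 12.6% lower (26.5% called in all). DESeq2 called the same number, 4, beside 3357 of all 10889 genes (1641 higher and 1716 lower). All 3 YAP5SA libraries lay above all 3 Control libraries for 6 of the 8 and below them for 1, Rbl2, against 25.9% of all genes above and 22.3% below (48.2% either way). All 4 called genes were among the 5 of these 8 (E2f1, E2f4, E2f5, E2f8 and Rbl1) whose Control libraries would not have carried them past the filter, against 27.7% of all genes tested, so neither count is evidence about the family. Without a filter, 4 of the 10 genes were called, namely E2f1, E2f4, E2f7 and Rbl1, beside 3193 of all 19376 genes (1683 higher and 1510 lower). The calls of E2f4, E2f8 and Rbl1 were lost without any 1 of 5 libraries (YAP5SA tissue-1, YAP5SA tissue-2, YAP5SA enriched, Control tissue-3 and Control enriched), with adjusted p between 0.0624 and 0.104 for E2f4, 0.0647 and 0.165 for E2f8, and 0.119 and 0.228 for Rbl1. E2f1 stayed called without any 1 of the 6 libraries, with adjusted p at most 0.0431, and E2f7 was called higher without Control tissue-2 (adjusted p = 0.0062) and without Control enriched (adjusted p = 0.0402).

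Markers of other cells moved with genotype in the same cardiomyocyte sums. The summed level of 12 macrophage markers was 410, 1038 and 541 CPM in YAP5SA cardiomyocytes, against 299, 155 and 23.6 CPM in Control cardiomyocytes, and 3 of the 10 tested were called higher. For 11 fibroblast markers the sums were 630, 793 and 810 CPM in YAP5SA, against 311, 669 and 143 CPM in Control cardiomyocytes, and 0 of them were called. Smooth muscle markers stood between 2980 and 3501 CPM in YAP5SA, against 124 to 342 CPM in Control, and epicardial markers between 46.9 and 80.2 CPM in YAP5SA, against 3.1 to 6.2 CPM in Control; 3 genes of each list were called higher, and 1 smooth muscle marker was called lower. For 1000 macrophage-marker UMIs, YAP5SA cardiomyocytes held 50.7, 13.8 and 17.5 E2f1 UMIs, whereas macrophages of the same libraries held 1.27, 1.31 and 1.26. For 1000 fibroblast-marker UMIs, they held 32.98, 18.0 and 11.7 E2f1 UMIs, whereas fibroblasts of the same libraries held 0.38, 0.27 and 0.38. For E2f4 the number was 140.6, 45.1 and 32.6 UMIs for 1000 macrophage-marker UMIs in YAP5SA cardiomyocytes, whereas macrophages held 1.24, 0.85 and 0.55. The part of smooth muscle and epicardial markers in these results was not tested. In cardiomyocytes with no UMI of either marker list, E2f1 had 6, 0 and 10 UMIs in 78, 23 and 407 YAP5SA cells, against 0 UMIs in 138, 332 and 919 Control cells, and no member passed the filter there.

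The rise could also be counted in cells. E2f1 was seen in 66 of 1629 YAP5SA cardiomyocytes and in 1 of 2817 Control cardiomyocytes. Of the 66 cells, 41 also held a UMI of a macrophage marker and 43 one of a fibroblast marker, as did 774 and 876 of all 1629 YAP5SA cardiomyocytes. After every cell was thinned to 1000 UMIs, E2f1 was detected in 7 of 288, 4 of 245 and 17 of 888 YAP5SA cardiomyocytes (2.43%, 1.63% and 1.91%). It was detected in 0 of 560, 0 of 1156 and 0 of 1049 Control cardiomyocytes, which allows shares of up to 0.536%, 0.260% and 0.286%. The mean was 1.99 ± 0.40% in YAP5SA and 0% in Control (SD, n = 3 libraries each), and 4.45 ± 0.89% in YAP5SA and 0.058 ± 0.10% in Control before thinning. Among endothelial cells, which were not the target of the transgene, E2f1 was detected after thinning in 1 of 81, 0 of 84 and 0 of 185 YAP5SA cells, against 0 of 50, 5 of 661 and 0 of 170 Control cells. Median depth before thinning was 1876, 2679.5 and 2698 UMIs per YAP5SA cardiomyocyte and 4595, 4565 and 2204 per Control cardiomyocyte, so the YAP5SA cells were shallower in the tissue libraries and deeper in the enriched ones. It was 1094, 1150 and 1472 UMIs per YAP5SA endothelial cell and 1008, 1391 and 1114 per Control endothelial cell.

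E2f4 was detected after thinning in 3.82%, 6.53% and 2.14% of YAP5SA cardiomyocytes, against 1.79%, 0.173% and 0.191% of Control cardiomyocytes. E2f7 or E2f8 was detected in 3 of 288, 2 of 245 and 4 of 888 YAP5SA cardiomyocytes, against 0 in each Control library. The genotypes did not overlap in either measure, nor for E2f1. E2f1 did not overlap at 500 UMIs or without thinning either, whereas E2f4 overlapped in both and E2f7 or E2f8 overlapped at 500 UMIs. The exact permutation test of genotype within preparation gave p = 0.167 (two-sided) for E2f1 and for E2f4, which is the smallest that the 12 arrangements allow. Before thinning, 71 of 1629 YAP5SA cardiomyocytes held UMIs of exactly 2 members, 27 of 3 and 5 of 4 or more, against 36, 4 and 0 of 2817 Control cardiomyocytes.

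Within YAP5SA cardiomyocytes, E2f1, E2f7, E2f8 and Rbl1 sat mostly in the cells that the deposited phase calls put in S or G2M, while E2f3, E2f4 and Rbl2 did not. Those calls placed 13.7%, 19.1% and 13.8% of YAP5SA cardiomyocytes in S or G2M, against 1.74%, 3.75% and 3.46% of Control cardiomyocytes. The calls were made from transcripts of the same cells, the gene list behind them is not given in the sources used here, and a list in common use holds E2f8, so the split is a description with no test. Cells called S or G2M held 13.6% of all UMIs of YAP5SA cardiomyocytes. The 91 Control cardiomyocytes so called held 188284 UMIs, with 0 UMIs of E2f1, E2f2, E2f5, E2f7 and E2f8. They held 1 UMI each of E2f3, E2f4, Rb1 and Rbl1 and 2 UMIs of Rbl2.

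E2f1 had 97.0, 63.8 and 67.5 CPM in the S or G2M cells of the 3 YAP5SA libraries, against 6.7, 2.0 and 2.0 CPM in their G1 cells. S or G2M cells thus held 66 of the 82 E2f1 UMIs, or 80.5%. For E2f7 the share was 16 of 20 UMIs (80.0%), for E2f8 28 of 33 (84.8%) and for Rbl1 24 of 35 (68.6%). The pooled level of Rbl1 was 26.1 CPM in S or G2M cells and 1.89 CPM in G1 cells. E2f4 stood apart, with 37 of 198 UMIs in S or G2M cells (18.7%) and a pooled level of 40.2 CPM in S or G2M cells and 27.6 CPM in G1 cells. In G1 cells alone, E2f4 had 55.9, 45.6 and 16.5 CPM in YAP5SA cardiomyocytes, against 13.3, 3.3 and 0.4 CPM in Control cardiomyocytes. The genotypes did not overlap, but this was not particular to E2f4. In G1 cells E2f1, E2f3, E2f5, Rb1 and Rbl1 were also higher in every YAP5SA library than in any Control library. E2f2, E2f7, E2f8 and Rbl2 did not separate the genotypes there. These CPM are not scaled by TMM, which by itself favors higher values in YAP5SA cardiomyocytes. How many of all genes separate in G1 cells was not counted. The share of UMIs in S or G2M cells was 15.1% for E2f3 and 12.3% for Rbl2, close to that of all UMIs. It was 26.1% for Rb1, whose pooled level was 32.6 CPM in S or G2M cells and 14.6 CPM in G1 cells.

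E2f7, E2f8 and Rbl1 also lay mostly in cells called S or G2M in the macrophages and fibroblasts of the YAP5SA hearts. In macrophages, cells called S or G2M held 72.0% of all UMIs but 137 of 139 UMIs of E2f7, 321 of 326 of E2f8 and 492 of 534 of Rbl1. In fibroblasts they held 44.2% of all UMIs but 55 of 60 of E2f7, 72 of 75 of E2f8 and 117 of 135 of Rbl1. For E2f1 the share was lower than for these genes, at 85.5% of its UMIs in macrophages and 74.1% in fibroblasts. E2f4 was spread like the bulk of the transcripts there too, with 74.5% of its UMIs in S or G2M cells of macrophages and 47.6% in those of fibroblasts.

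**Figure D2:**
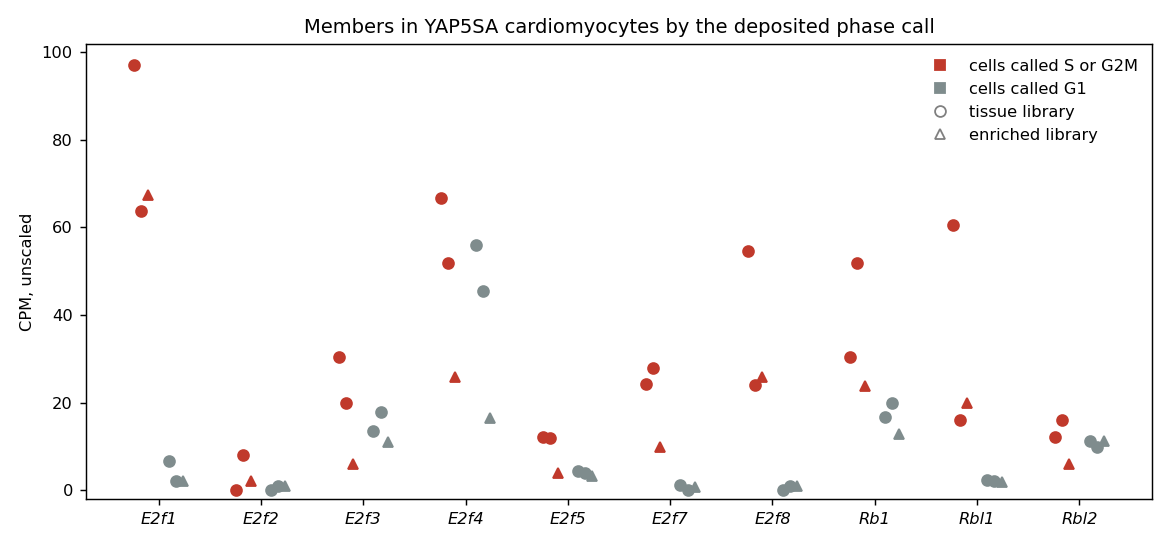
Level of each gene in YAP5SA cardiomyocytes, in CPM not scaled by TMM (linear axis, genes side by side in 1 panel), in cells called S or G2M (left, red) and G1 (right, gray). Each point is 1 library. E2f1 stood between 63.8 and 97.0 in S or G2M cells and between 2.0 and 6.7 in G1 cells, whereas E2f4 was present in both.

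The cardiomyocyte cluster that the authors named YAP5SAcm held 896 YAP5SA and 99 Control cells, and most of the E2f1 signal was there: 56 of the 66 YAP5SA cardiomyocytes with an E2f1 UMI belonged to it. Pooled over libraries, E2f1 had 72 UMIs (18.0 CPM) in YAP5SA cells and 1 UMI (3.9 CPM) in Control cells of that cluster. In the other cardiomyocyte clusters, CM1, CM2 and CM3, the Control cells gave 0 E2f1 UMIs. E2f4 in YAP5SAcm averaged 40.3 CPM over pooled YAP5SA cells, between 24.2 and 75.1 CPM by library, against 7.8 CPM in Control cells. Among the 99 Control cells, E2f4 was seen in 2. Its log2 fold change within that cluster was 2.59 (SE 0.91, edgeR adjusted p = 0.0672), where 7.55% of the genes tested were called. Within CM1, where 0.0244% were called, it was 1.65 for E2f4 (edgeR adjusted p = 0.361) and 0.10 for Rbl2. Members were also tested within CF3, CF4, Mac1, Mac2 and Mac4, where 0%, 2.58%, 0.855%, 0.0661% and 1.66% of genes were called, and no member was called within any of these 7 clusters. When YAP5SAcm was left out of the cardiomyocyte sums, 4 members were tested and 0 called, with log2 fold changes of 1.71 for E2f4 (edgeR adjusted p = 0.244), -0.07 for E2f3, 0.01 for Rb1 and -0.31 for Rbl2; the calls over all genes then numbered 17.

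Across all 17 clusters, each gene had its own distribution among the YAP5SA hearts. E2f1 was highest in the macrophage clusters Mac2 (37.9 CPM), Mac1 (31.1), Mac4 (29.8) and Mac3 (29.6) and in monocytes (20.6), and YAP5SAcm came next at 18.0 CPM. Both genotypes had 0 E2f1 UMIs in smooth muscle cells. E2f4 was highest in YAP5SAcm at 40.3 CPM, followed by epicardial cells at 28.1 CPM (from 6 UMIs) and Mac4 at 24.2 CPM. E2f8 peaked in Mac4 (43.0 CPM) and the fibroblast cluster CF4 (26.8 CPM), and E2f7 stood at 19.2 CPM in each of these. Rbl1 was highest in Mac4 at 55.6 CPM, with Mac1 at 37.1, Mac3 at 37.0 and CF4 at 36.6 CPM. The pocket genes with roles in resting cells had their highest values elsewhere. For Rb1 this was in endothelial cells at 32.8 CPM (30 UMIs). For Rbl2 it was in smooth muscle cells at 33.6 CPM and in EndoC at 26.6 CPM, from 7 and 8 UMIs alone. Neighbouring positions in these orders were not tested.

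**Figure D3:**
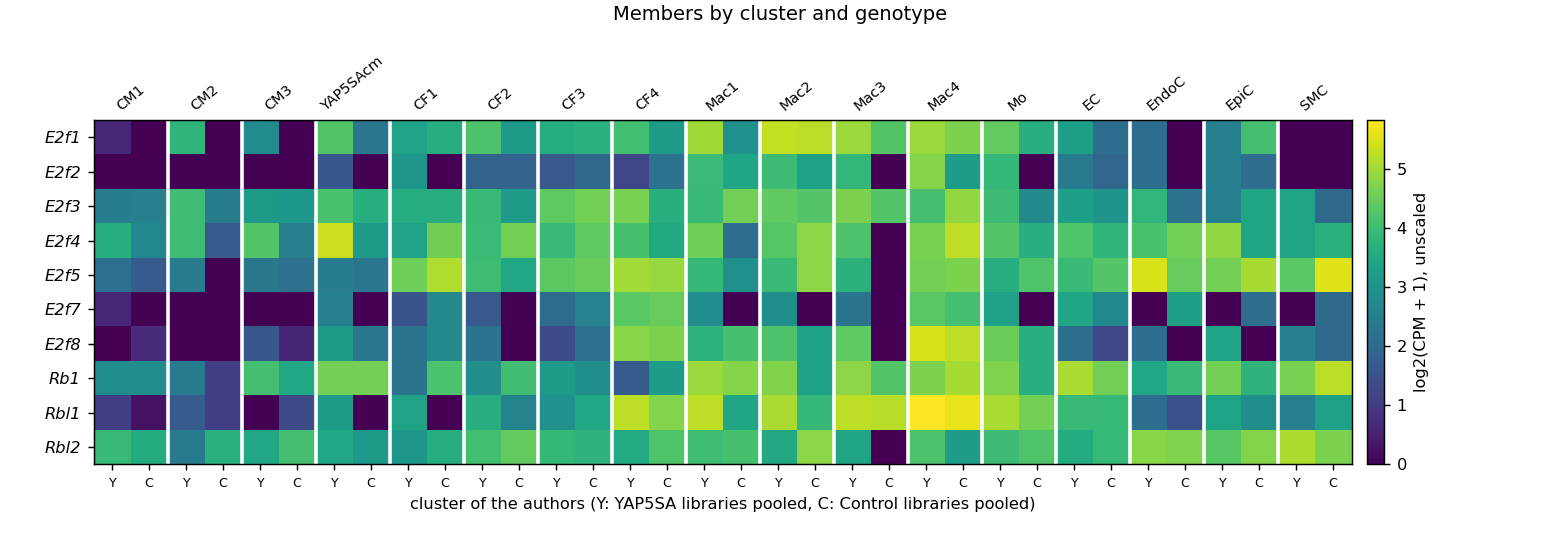
Level of the 10 genes in the 17 named clusters, as log2(CPM + 1) over pooled libraries, not scaled by TMM, with YAP5SA left and Control right within each cluster. E2f1 was visible in the macrophage clusters of both genotypes and, among cardiomyocytes, in YAP5SAcm, where it stood at 18.0 CPM in YAP5SA and 3.9 CPM in Control cells.

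In fibroblasts and macrophages of the same hearts, which should not carry the active transgene, no member was called. In macrophages E2f1 had 28.7, 32.1 and 32.2 scaled CPM in YAP5SA libraries, against 19.8 and 27.0 scaled CPM in the 2 Control tissue libraries; the Control enriched library held no macrophages. Its log2 fold change there was 0.50 (edgeR adjusted p = 0.746). Rbl1 had 47.3, 42.6 and 35.7 scaled CPM in YAP5SA macrophages, against 25.8 and 20.2 scaled CPM in Control macrophages. The Rbl1 groups did not overlap, but its log2 fold change of 0.87 did not pass the test (edgeR adjusted p = 0.475). Of the 10 members tested in macrophages 0 were called, beside 0% of 11770 genes (1178 had an unadjusted p under 0.05, and DESeq2 called 34 higher and 64 lower).

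In fibroblasts E2f1 had 17.9, 12.8 and 19.1 scaled CPM in YAP5SA libraries, against 12.2, 9.07 and 0 in Control libraries, the last from 10 cells. Its log2 fold change was 0.49 (edgeR adjusted p = 0.9999). Of the 9 members tested in fibroblasts 0 were called, beside 2.23% of 10726 genes. Rb1 had the log2 fold change farthest from 0, at -0.99 (edgeR adjusted p = 0.938), and was called lower without Control tissue-2 (-1.91, edgeR adjusted p = 0.0293). In the other classes no member passed the filter on low counts.

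The difference in response between cell classes was itself tested, as the interaction of class and genotype. E2f1 responded more in cardiomyocytes than in fibroblasts, by 5.14 on the log2 scale (SE 1.03, edgeR adjusted p = 3.2e-05), and more than in macrophages, by 5.33 (SE 1.09, adjusted p = 0.00145). E2f7, E2f4 and Rb1 also differed from fibroblasts, by 5.19 (SE 1.56, adjusted p = 0.0105), 1.62 (SE 0.57, adjusted p = 0.0297) and 1.71 (SE 0.62, adjusted p = 0.0382), where 10.4% of 12365 genes had a higher response in cardiomyocytes and 6.98% a lower one (17.4% called). Against macrophages, E2f7 was the other member called, at 5.94 (SE 2.04, adjusted p = 0.0481), beside 5.63% of 13386 genes higher and 7.27% lower (12.9% called). The E2f1 and E2f7 sizes depend on the prior count, because Control cardiomyocytes had 1 UMI of E2f1 and 0 of E2f7. E2f1 stayed called in both comparisons without any 1 library, with adjusted p at most 0.0314. Against fibroblasts, E2f4 lost its call without any 1 library but YAP5SA enriched (adjusted p 0.0603 to 0.184), and Rb1 without any 1 but Control tissue-2 (0.0610 to 0.435). E2f7 lost its call against fibroblasts without YAP5SA tissue-1, YAP5SA tissue-2, Control tissue-2 or Control enriched (adjusted p 0.0517 to 1, with a difference of -0.77 without Control tissue-2), and against macrophages without YAP5SA tissue-1, YAP5SA tissue-2, Control tissue-2 or Control tissue-3 (0.0794 to 0.372).

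**Figure D4:**
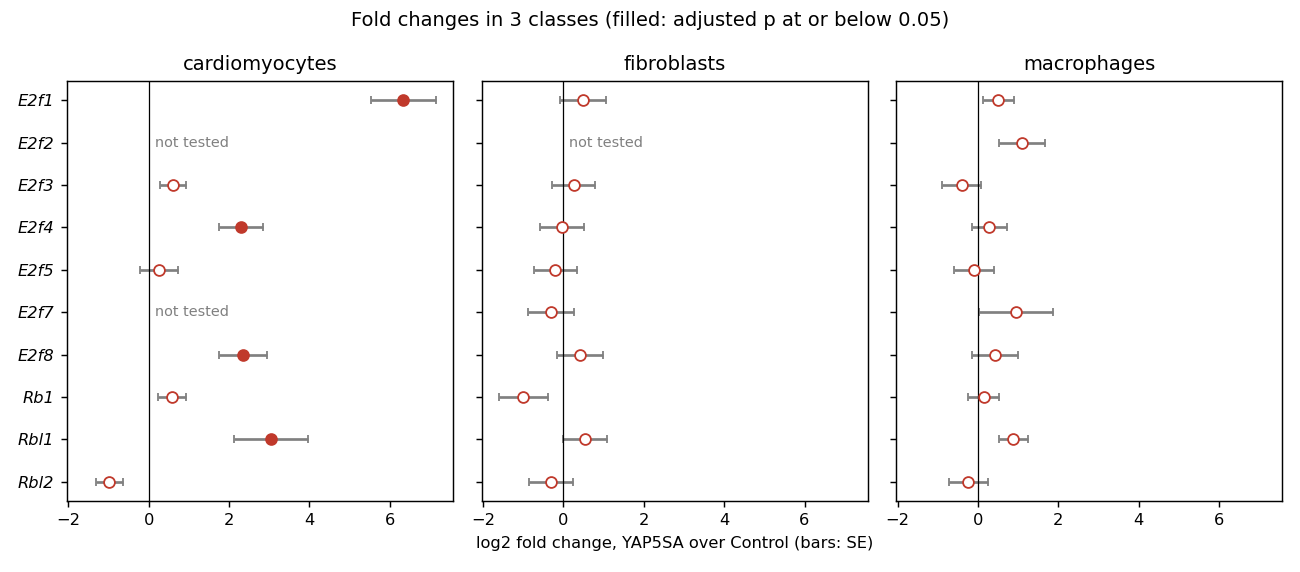
Log2 fold change of YAP5SA over Control for each gene tested in cardiomyocytes, fibroblasts and macrophages, with bars of 1 standard error; filled points have an adjusted p of at most 0.05. In cardiomyocytes E2f1 (6.33), Rbl1 (3.03), E2f8 (2.35) and E2f4 (2.303) are filled, and no point is filled in fibroblasts or macrophages.

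Other genes of the pathway were read from lists of named genes. Among the D cyclins and CDK4/6, the kinases that begin the phosphorylation of pocket proteins, 3 of 5 genes tested were called higher and 0 lower, with a median log2 fold change of 1.19. They were the D cyclins Ccnd1 (2.21), Ccnd2 (1.57) and Ccnd3 (1.19), while Cdk4 had -0.08. Ccnd2 had 269, 236 and 211 scaled CPM in YAP5SA cardiomyocytes, against 82.6, 76.5 and 82.0 in Control cardiomyocytes, and the edgeR adjusted p was 0.0108. Among E and A cyclins with CDK2, 3 of 5 tested rose with a median of 2.11, namely Ccna2 (4.50), Ccne1 (3.05) and Cdc25a (2.11), the last a phosphatase that activates CDK2. Of 6 CDK inhibitors tested 1 rose and 0 fell (median 1.12), and the riser was Cdkn1c (2.60), which encodes p57. The inhibitor gene Cdkn1b, which encodes p27, had a log2 fold change of -1.01 and Cdkn2b one of 2.67, both outside the threshold (edgeR adjusted p = 0.0541 and 0.0534).

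The next 3 lists hold genes whose products work with E2Fs and pocket proteins. Of the dimer partners and E2f6, 2 were tested and 0 called, with Tfdp2 at -0.18 and E2f6 at -0.06 (median -0.12). In the list of DREAM, MuvB and B-Myb components, the complex through which E2f4 and Rbl2 silence cell cycle genes, 2 of 7 tested rose and 0 fell, with a median of 0.17. The risers were Mybl1 (4.02), a relative of B-Myb, and Lin54 (1.33), the DNA-binding subunit of MuvB. Among chromatin factors that associate with RB, 0 rose and 2 of 11 tested fell, the histone deacetylase genes Hdac2 (-1.24) and Hdac3 (-1.36), with a median of -0.09. Over all genes tested, 26.5% were called. All these values are relative to TMM scaling; library totals alone moved the median of all genes to 0.88, and each gene's value up with it.

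Of the E2F target genes, 34 of 51 tested rose and 2 fell, with a median log2 fold change of 2.34 beside 0.04 for all genes. For 38 of the 51 the Control libraries would not have carried the gene past the filter on low counts, as for all 5 E and A cyclins and CDK2 genes, so these counts and medians are a description. Cdk1, the kinase that drives entry into mitosis, had 36.4, 33.7 and 34.4 scaled CPM in YAP5SA cardiomyocytes, against 0.66, 0.84 and 0 in Control cardiomyocytes (log2 fold change 5.84, edgeR adjusted p = 0.0022). Cdc20, an activator of the anaphase-promoting complex, had a log2 fold change of 5.44, and Rrm2, a subunit of the enzyme that makes deoxynucleotides, one of 4.52. Ung, a DNA repair gene, was among the targets that fell (-2.10). The same list of targets had a median of 0.31 in fibroblasts over 57 genes and 0.28 in macrophages over 60 genes, with 0 called in either. Ccne1, Ccna2, Cdc25a and Mybl2 stood in more than 1 list, and the lists are described by these counts alone.

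**Figure D5:**
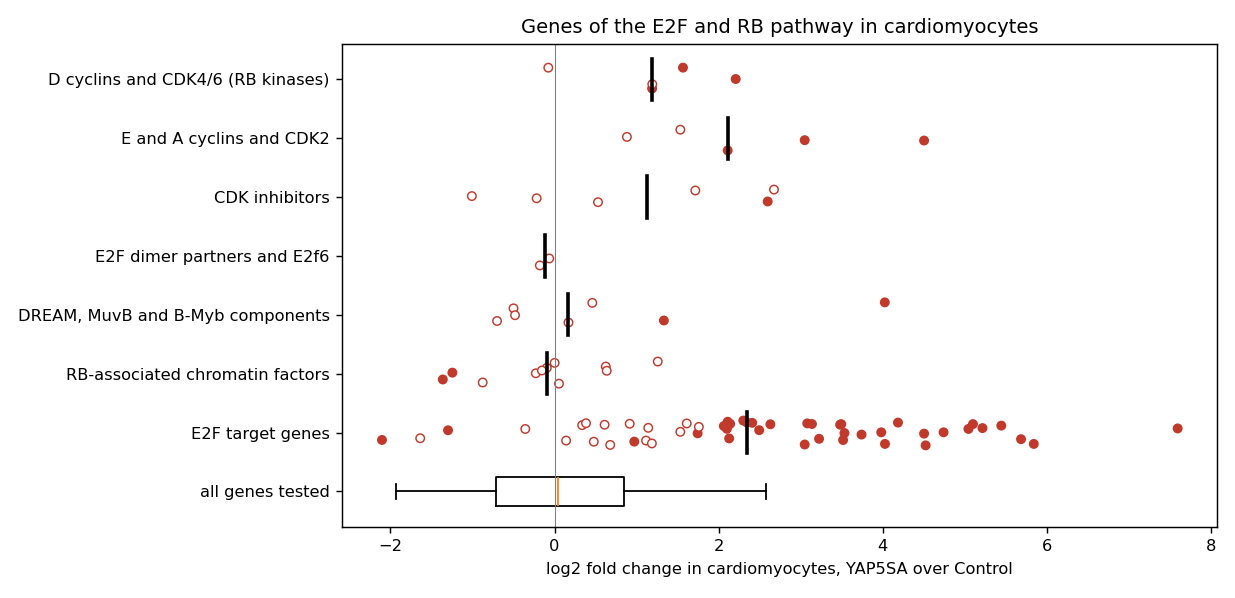
Log2 fold change of YAP5SA over Control in cardiomyocytes for each tested gene of 7 pathway lists, beside a box for all genes with whiskers at the 5th and 95th percentiles. Black bars are list medians, and filled points have an adjusted p of at most 0.05. The median of E2F target genes was 2.34, that of the dimer partners -0.12 and that of all genes 0.04.

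Genes with the most similar pattern were looked for across 65 sums of cluster and library, in log2 CPM, among 19996 genes; sums from 1 library share its preparation and depth, so the correlations are descriptions. E2f1 ran closest to Hells (r = 0.84), Clspn (r = 0.83) and Mcm5 (r = 0.81). The nearest genes were Bub1 (r = 0.85) for E2f7, Asf1b (r = 0.85) for E2f8, Prim1 (r = 0.87) for Rbl1 and Cdk19 (r = 0.88) for E2f5. E2f2, E2f3, E2f4, Rb1 and Rbl2 had no nearest 3 genes all at r of 0.8 or above. Among the members, Rbl1 ran with E2f7 (r = 0.75) and E2f8 (r = 0.73), whereas Rbl2 had r between -0.29 and 0.05 with every other member.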

How the data were processed

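Drop-seq libraries of adult mouse hearts were used, 3 YAP5SA and 3 Control. The authors deposited 1 table of raw UMI counts per gene and cell (50784032 UMIs) and a table with their library, cluster, phase call and mitochondrial fraction for each cell. Per the submitters' processing notes, Picard, STAR and Seurat 2.3.4 were used; the genome build and annotation are not given in the sources used here. A second deposited table of scaled values was not used. Cells that the authors had already filtered were taken as deposited, doublets included, and no further filter was applied.

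Genes occurred under joined names in 4 of the 6 libraries; 852 joined names were merged into families, which left 21209 features, and 0 members were among them. The 17 clusters were grouped by name into 8 classes. Counts were summed per library and class, leaving out sums of under 10 cells, so that cells were never treated as replicates. edgeR 4.0.16 in R 4.3.3 (TMM, filterByExpr, robust quasi-likelihood, preparation plus genotype) was run on all genes, with Benjamini-Hochberg adjustment at 0.05. Interactions of class and genotype had the library as a block. A fibroblast sum of 10 cells entered the fits. DESeq2 1.42.0 was an alternative. Shares of cells were taken after thinning each cell to 1000 UMIs, with an exact permutation test within preparation; shallower cells were left out, which kept between 84.0% and 98.6% of cardiomyocytes. Exact (Clopper-Pearson or Poisson) 95% intervals and floors of 3 counts cover counting error only.

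All 10 members were reported, with up to 3 genes of each pathway list, those of the smallest p, and for each member the 3 genes of highest Pearson r where all reached 0.8. Cdk4 and Ung were named after their values were seen. The members and lists were chosen with earlier results of these data known. Alternatives were RLE size factors, library totals, no filter, genotype alone, unmerged names, at least 30 cells, tissue libraries alone, each library left out, YAP5SAcm left out, cells without other cells' markers, and thinning to 500 UMIs.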

Additional observations from a re-analysis of the deposited data

Results flagged for a closer look

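The response to YAP5SA differed between cell classes for 4 genes, each by a test of the difference itself (edgeR quasi-likelihood test with Benjamini-Hochberg adjustment, log2 scale, cardiomyocytes minus the other class). Against fibroblasts, the difference was 5.14 for E2f1 (adjusted p = 3.2e-05), 5.19 for E2f7 (adjusted p = 0.0105), 1.62 for E2f4 (adjusted p = 0.0297) and 1.71 for Rb1 (adjusted p = 0.0382). Against macrophages, it was 5.33 for E2f1 (adjusted p = 0.00145) and 5.94 for E2f7 (adjusted p = 0.0481). Over all genes tested, 17.4% were called against fibroblasts and 12.9% against macrophages. The E2f1 and E2f7 sizes depend on the prior count, because Control cardiomyocytes had 1 UMI of E2f1 and 0 of E2f7. The Rb1 difference joined 2 effects that did not pass the test on their own, 0.58 in cardiomyocytes and -0.99 in fibroblasts. E2f1 kept its call in both comparisons without any 1 library. Against fibroblasts E2f4 and Rb1 each lost theirs without any 1 of 5 libraries, and E2f7 was at -0.77 without Control tissue-2. Against macrophages E2f7 lost its call without any 1 of 4 libraries.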

How the results depend on the processing

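For log2 fold changes, differences and shares, 455 values under alternatives kept their direction and side of the threshold, 39 lost their call, 5 gained one and 25 changed sign. For counts of called members, 56 stayed within 1.5 times the main count and 16 did not; the cause was not tested. The 4 members called in cardiomyocytes became 1 with tissue libraries alone, 0 without the YAP5SAcm cluster and 1 to 6 when each library was left out. Leaving out each library gave 0 to 1 in fibroblasts, 1 to 3 for cardiomyocytes minus fibroblasts and 1 to 2 for cardiomyocytes minus macrophages; for the differences these leave-outs were chosen after seeing the data. In cardiomyocytes E2f1 was called in all 14 alternatives that tested it (log2 fold change 4.95 to 8.07), E2f4 in 7 of 15, E2f8 in 7 of 14 and Rbl1 in 6 of 13. Without a filter on low counts E2f7 was called (6.24, adjusted p = 0.0066). All genes called in cardiomyocytes numbered 2889, but 203 without YAP5SA tissue-2, 535 without YAP5SA tissue-1, 1621 without YAP5SA enriched, 4604 without Control tissue-2, 1609 without Control tissue-3, 1578 without Control enriched and 4538 under library totals alone, where 4115 were higher and 423 lower.

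These log2 values changed sign. In cardiomyocytes E2f3 was -0.0666 without YAP5SAcm. In fibroblasts E2f4 was 0.0168 under library totals and E2f8 -0.0947 in the libraries with joined names; leaving out each library gave -0.197 to 0.326 for E2f4 (0.0796 without YAP5SA tissue-1, 0.0526 without YAP5SA tissue-2), -0.465 to 0.0509 for E2f5, -0.734 to 6.52 for E2f7 (0.181 without YAP5SA tissue-1) and -0.0788 to 7.19 for E2f8. In macrophages E2f5 was 0.0071 under library totals and 0.310 in the libraries with joined names, and leaving out each library gave -0.694 to 1.35 for E2f3, -0.947 to 0.319 for E2f5, -0.360 to 1.74 for E2f7 and -0.00067 to 0.209 for Rb1. For cardiomyocytes minus fibroblasts the range was -0.0699 to 0.288 for E2f3, -0.767 to 6.16 for E2f7 and -5.20 to 2.98 for E2f8, and Rbl2 was 0.307 under library totals. For cardiomyocytes minus macrophages it was -0.901 to 1.17 for E2f3, -0.194 to 0.676 for E2f5 and -7.42 to 2.55 for E2f8, and Rbl2 was 0.183 under library totals. The share of cells with Rbl2 differed by 0.063 percentage points when thinned to 500 UMIs.

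No paired analysis was possible because the tissue libraries of YAP5SA carry numbers in the cell table that do not match those of the labels, so no number ties them to Control libraries. A minimum of 30 cells removed no library from cardiomyocytes or macrophages, and in cells without macrophage or fibroblast markers no member passed the filter. Depth limits E2f2, E2f5, E2f7, E2f8 and Rbl1, which rest on 35 UMIs or fewer each in YAP5SA cardiomyocytes.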
